A study of Mus musculus with 2 samples.

Results

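Natural killer (NK) cells in the middle of a maturation order were examined within a sorted splenic population. The cells carry both CD27 and CD11b on their surface and come from C57BL/6 mice. The control mice had the genotype EP3F/F, with floxed alleles of Ptger3, the gene of the prostaglandin E2 receptor EP3. The knockout mice had the genotype NKp46CreEP3F/F, in which Cre under NKp46 (encoded by Ncr1) acts on the same floxed alleles, and both groups therefore share the floxed alleles. Each genotype is 1 droplet library of 2 pooled mice, and the labels give no age or sex.

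The middle cells were chosen by measured values. A barcode was kept with at least 500 detected genes, at most 10% mitochondrial counts, at least 3 unique molecular identifiers (UMIs, each standing for 1 captured transcript) over Ncr1, Klrb1c and Klrk1, 0 of Cd3e and at most 1 over 5 macrophage, dendritic and platelet genes. Each kept cell received a score, the mean log level of Itgam, Klrg1, Zeb2, Cma1 and S1pr5 minus that of Cd27, Ltb, Emb, Thy1 and Tcf7, the scores of each library were cut into 3 equal classes, and the middle class was taken. This gave 3454 control and 3039 knockout cells, 6493 of the 19478 NK cells scored and of 22400 barcodes in all. They hold 22134792 control and 13027364 knockout UMIs. With 1 library per genotype there is no replicate and no test. Genotype and library cannot be told apart, cells are not replicates, and the 95% intervals below describe counting error and nothing else.

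The labels describe a population in the CD27 and CD11b double-positive stage. In the mouse, NK cells first carry CD27 without CD11b, then both proteins, and last CD11b without CD27. Along this path they lose proliferative and helper-like features and gain granzymes, adhesion molecules and the sphingosine receptor S1PR5, which lets them leave lymphoid organs. Receptors of the Ly49 family, encoded by the Klra genes, are acquired along the way, each in a part of the cells, so that one cell carries a few of them and its neighbour a different few. The classes described here are slices within 1 sorted stage, not the stages themselves.

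Middle scores ran from -0.1249 to 0.4723 in the control and from -0.3446 to 0.2843 in the knockout, with medians of 0.186 and 0. The nearest cells left out had scores of -0.1256 and 0.4725 in the control and of -0.3447 and 0.2844 in the knockout, so the class is a range and not a type. Within 0.05 of a cut lay 606 control members (17.5%) and 559 knockout members (18.4%), with 479 and 519 cells just outside. Both sides of the score were detected in 93.4% of the middle cells of the control and 83.8% of the knockout. In the least mature class these shares were 87.5% and 59.5%, and in the most mature class 64.6% and 46.6%. A middle cell of the control held a median of 5 UMIs over the mature and 3 over the immature score genes, and a knockout cell 2 and 2. A score of exactly 0 was found in 321 control members (9.29%) and 713 knockout members (23.5%), among them 42 (1.22%) and 171 (5.63%) with no UMI of any score gene. In those last cells the middle place records an absence of counts.

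The score genes that chose the cells are given as a description. Itgam, the gene of CD11b, stood at 88.3 CPM (UMIs of the gene per 1000000 UMIs of the class) in the least mature, 144 in the middle and 243 in the most mature class of the control, and at 45.2, 83.8 and 159 CPM in the knockout. Cd27 stood at 205, 125 and 69.1 CPM in the control and at 256, 148 and 67.7 CPM in the knockout. Transcripts of both proteins of the sort gate were thus present in the middle class of both libraries. Zeb2, a transcription factor of terminal NK maturation, differed most between the libraries, with 347 CPM in the control and 158 CPM in the knockout middle class. Outside the score, the NK factor Eomes was at 357 CPM in the middle of the control and 308 CPM in that of the knockout, with 347 and 348 CPM at the ends of the control and 278 and 301 CPM at those of the knockout. Ncr1, which drives Cre and was used to choose NK cells, stood at 763, 794 and 821 CPM in the control and 773, 809 and 892 CPM in the knockout. Ptger3 gave 2 UMIs in the middle class of the control and 0 in that of the knockout, where 3 counts would be 0.230 CPM, so the targeted gene was not measurable in these cells. In the control, Ptger3 gave 2 UMIs in the least mature and 9 in the most mature class (0.447 CPM). In the knockout it gave 0 in both. The labels do not name the deleted exon, and tags at the 3′ end outside it would not check the deletion.

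Depth moved with the score. Median UMIs per cell in the least mature, middle and most mature classes were 6359.5, 5815 and 5339 in the control and 4096, 3859 and 3542 in the knockout, and median mitochondrial shares 3.55%, 3.46% and 3.41%, and 3.98%, 3.87% and 3.80%. Markers of ILC1, a related tissue lymphocyte, summed to 111, 38.7 and 28.1 CPM in the control and 227, 84.8 and 57.5 CPM in the knockout, with 7 of 7 markers detected in the middle. T cell markers summed to 657, 561 and 519 CPM and to 868, 703 and 620 CPM, with Cd3e at 0 by the choice of cells and Cd8a also at 0 in the control middle class. Macrophage markers stayed between 7.54 and 13.1 CPM in all classes, and erythroid markers reached 121 CPM in the middle and 191 CPM in the most mature class of the knockout. The libraries shared 33 barcodes, 25 of them among scored cells and 2 in both middle classes. When both libraries were cut at the same scores, the middle class held 33.7% of the control (exact binomial interval 32.8 to 34.6) and 32.9% of the knockout cells (31.9 to 33.9), whereas the least mature class held 28.0% and 39.4% and the most mature class 38.3% and 27.7%.

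Klra4 and 3 others had been put forward as marks of the middle cells, namely Klra8, Tox and Cd160. None was highest in the middle class in either library. Klra4, the gene of the activating receptor Ly49D, stood at 927 CPM in the least mature, 1309 in the middle and 1586 in the most mature class of the control, and at 779, 1196 and 1211 CPM in the knockout. Klra8, the gene of the activating receptor Ly49H, stood at 830, 1093 and 1232 CPM in the control and at 514, 754 and 800 CPM in the knockout. Both receptor genes were thus well above the least mature level in the middle and at most level with the mature end.

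Cd160, which encodes a receptor for the ligand HVEM, ran the other way, with 161, 128 and 93.1 CPM in the control and 115, 91.7 and 66.4 CPM in the knockout. Tox, a nuclear factor needed in early NK development, stood at 42.9, 40.1 and 38.9 CPM in the control and at 34.3, 29.4 and 29.1 CPM in the knockout. The interval of its log2 ratio of middle over most mature class held 0 in both libraries (-0.10 to 0.18 and -0.20 to 0.23). The middle was thus between the ends for Klra8 and Cd160 in both libraries and for Klra4 in the control, while Klra4 in the knockout was level with the mature end within counting error. None of the 4 genes marked the middle against both ends.

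**Figure D1:**
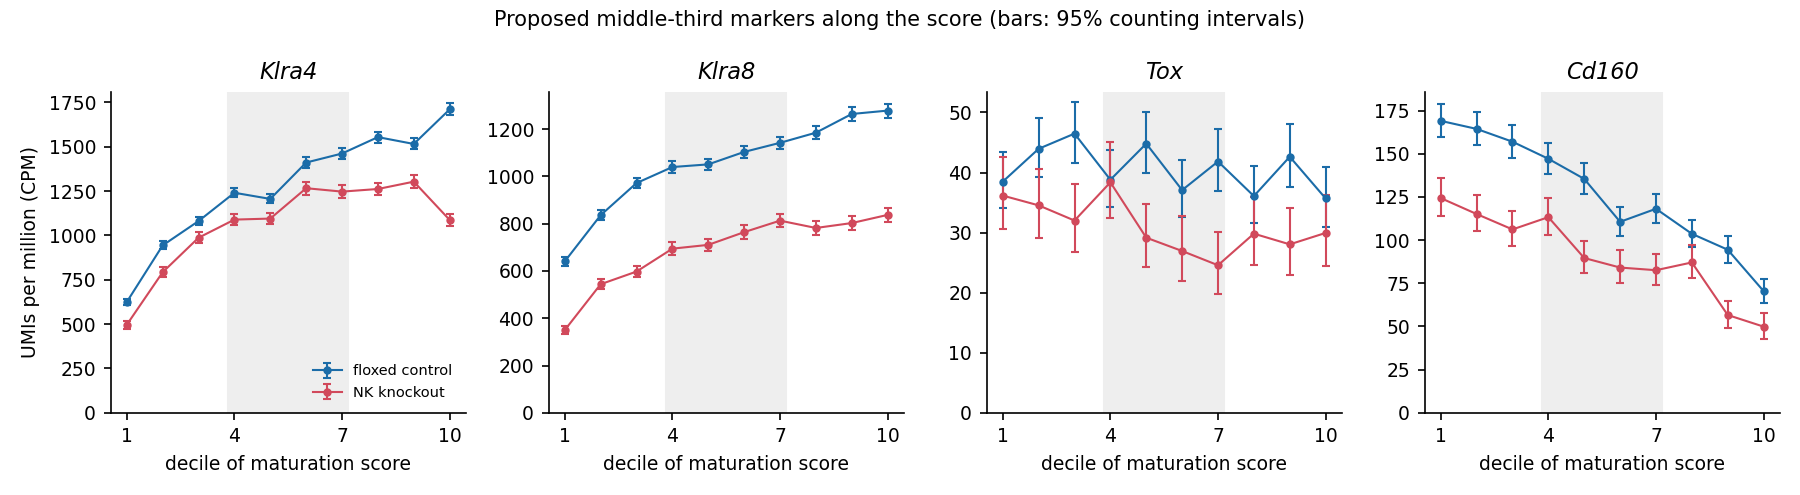
Level (CPM, linear axis from 0) of Klra4, Klra8, Tox and Cd160 in 10 equal classes of the maturation score, least to most mature, in the floxed control (blue) and NK knockout (red) libraries; bars are 95% exact Poisson intervals for counting error and grey marks the middle class. Klra4 in the control runs from 625 CPM in the first to 1710 CPM in the last class, Cd160 goes from 169 to 70.5 CPM, and no panel shows a hump over the grey band in both libraries.

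Finer classes of the score gave the same picture for Klra8 and Cd160, each highest at an end in both libraries. Tox had no steady course. Its highest decile was the third in the control (46.5 CPM) and the fourth in the knockout (38.4 CPM). In the control, Klra8 stood at 641 CPM in the lowest decile, 1040 CPM in the fourth, 1142 CPM in the seventh and 1278 CPM in the highest. In the knockout the same deciles read 350, 694, 813 and 837 CPM. Klra4 in the knockout stood at 497 CPM in the lowest decile, at 1266 CPM in the sixth, at 1303 CPM in the ninth and at 1087 CPM in the highest. The highest decile of the knockout thus lay below the sixth to ninth for Klra4, while in the control the highest decile was the highest of all at 1710 CPM.

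Genes that peaked in the middle were then sought over the whole table. Of 31053 genes listed, 5092 outside the score had at least 20 CPM over all classes in both libraries. A gene was called above both ends where its middle level exceeded the higher end by a log2 ratio of at least 0.1. In the control library 102 genes did so (2%) and in the knockout library 179 (3.52%). Both libraries shared 6 of them (0.118% of all measured genes), which is 5.88% of the control's list and 3.35% of the knockout's. Below both ends by the same size were 48 genes in the control (0.943%), 168 in the knockout (3.3%) and 7 in both (0.137%). Under the same rule the least mature class was above both others for 182 genes and below them for 305, and the most mature class for 264 and 191. The classes are cut from an order, so genes that follow the score are highest or lowest at an end by construction.

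The 6 genes above both ends had a small excess. They were Arih1, a ubiquitin ligase, Sf3a3, a splicing factor, Ubr7, Zfand2b, Slc35c2 and the non-coding A630001G21Rik. Arih1 stood at 83.6, 92.5 and 84.4 CPM in the control and at 51.9, 58.3 and 53.9 CPM in the knockout. Its log2 ratio over the most mature class was 0.13 in the control (0.04 to 0.23) and 0.11 in the knockout (-0.04 to 0.27), so counting error alone reached past 0 in the latter. Sf3a3 stood at 54.7, 59.7 and 53.3 CPM in the control and at 52.4, 56.5 and 52.4 CPM in the knockout. The other 4 lay between 17.0 and 45.0 CPM in every class, and at least 1 of the 4 intervals of each of the 6 genes held 0. Of these 6, all but Arih1 and Sf3a3 lie outside the rule for named genes and were picked with their values known, since the list is short. Genes past the size in 1 library and short of it in the other included Mef2c, a transcription factor, with 74.4, 83.6 and 76.8 CPM in the control and 77.2, 86.1 and 82.7 CPM in the knockout, and Banf1, with 110, 116 and 105 CPM and 107, 122 and 113 CPM.

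Genes lowest in the middle were described in the same way. They were picked by the same counts that give their intervals, so these intervals do not test the dips. Gna15, a G protein alpha subunit of blood cells, stood at 29.7, 23.9 and 30.4 CPM in the control and at 42.3, 32.6 and 39.4 CPM in the knockout, and all 4 intervals of its log2 ratios excluded 0. S100a6, a small calcium-binding protein listed among the mature markers, stood at 695, 633 and 732 CPM in the control and at 329, 284 and 347 CPM in the knockout. Its log2 ratios of middle over least and most mature classes were -0.13 (-0.17 to -0.10) and -0.21 (-0.24 to -0.18) in the control and -0.21 (-0.28 to -0.15) and -0.29 (-0.36 to -0.23) in the knockout. In both libraries the intervals of S100a6 thus lay below 0 against both ends.

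S100a4, a neighbour of S100a6 on chromosome 3 (90603770 to 90606045 and 90612894 to 90614414 in GRCm38.p6), stood at 78.8, 63.2 and 78.3 CPM in the control and at 61.8, 37.5 and 40.9 CPM in the knockout. Its ratio over the most mature class of the knockout was -0.12 (-0.31 to 0.06), so the upturn there was not separated from counting error. The remaining members, Zfp281, AI987944, AU019823 and Dse, stood between 19.0 and 33.6 CPM in every class. These 4 and Gna15 lie outside the rule and were picked with their values known. Each of the 4 had at least 1 interval that held 0.

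In the control, both S100 genes were highest in the lowest and the highest decile of the score. S100a6 in the control stood at 783 CPM in the lowest decile, between 619 and 702 CPM from the second to the ninth, and at 859 CPM in the highest. S100a4 in the control stood at 121 CPM in the lowest decile, 51.9 CPM in the third and 88.8 CPM in the highest. Markers of ILC1 were highest in the least mature class, as given above, where Il7r made up most of their sum. With every cell that held a UMI of an ILC1 marker left out, a choice made after seeing the data, the smaller distance below an end came to -0.07 for S100a6, 0.02 for S100a4 and -0.23 for Gna15 on the log2 scale. Each value is that of the library with the smaller dip, and for S100a4 the interval in the knockout already held 0 with all cells in. S100a6 came under the size used here and Gna15 stayed past it. The removal left 8546 of 10361 control and 6932 of 9117 knockout cells. It also took out cells with Il7r, an immature NK marker as well. With the score cut within 10 classes of total UMIs, Gna15 came to -0.04, and with each cell thinned to 2000 UMIs to -0.14.

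**Figure D2:**
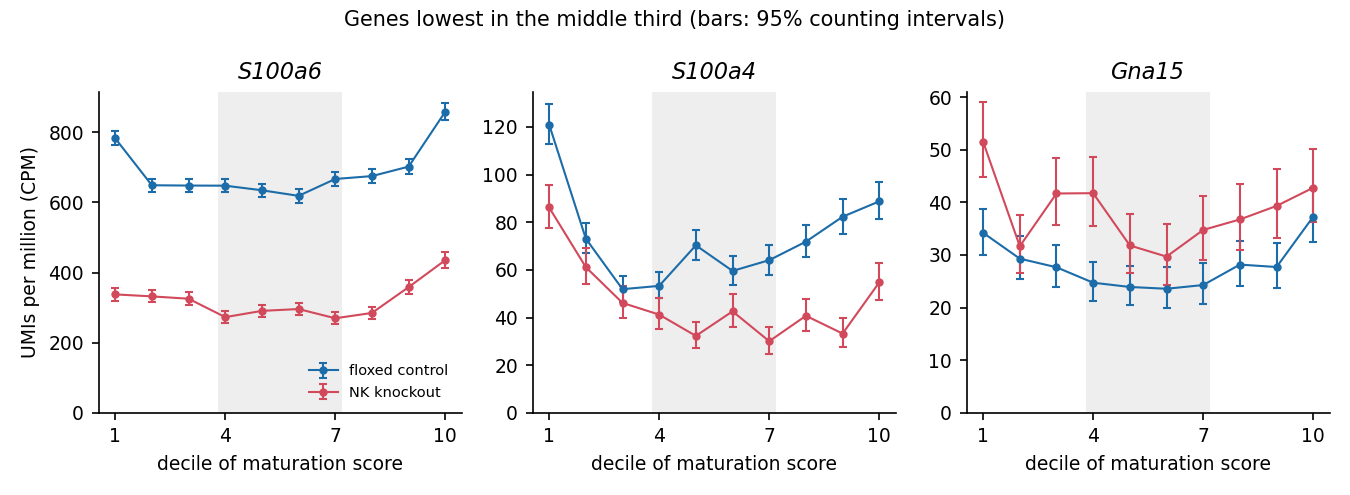
Level (CPM, linear axis from 0) of S100a6, S100a4 and Gna15 in 10 equal classes of the maturation score, least to most mature, in the floxed control (blue) and NK knockout (red) libraries; bars are 95% exact Poisson intervals and grey marks the middle class. S100a6 is highest in the first and last class of the control (783 and 859 CPM), and S100a4 is highest in the first class of both libraries.

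Over all 5092 measured genes the middle lay between the ends for 57.8% in the control, 51.0% in the knockout and 32.5% in both. A gene was called graded where its most and least mature classes differed by a log2 ratio of at least 0.5 in 1 direction in both libraries. There were 76 such genes, 39 higher in the most mature class (0.766%) and 37 higher in the least mature class (0.727%). Their number was 46 with cells thinned to 2000 UMIs, 128 with 5 classes, 37 at 50 CPM or more and 402 at 1 CPM or more. The position of the middle was then taken on the log2 scale, 0 standing for the least and 1 for the most mature level. Its median was 0.544 in the control (quartiles 0.471 and 0.616) and 0.511 in the knockout (0.397 and 0.598). The middle lay between the ends for 76 of 76 graded genes in the control and 75 of 76 in the knockout, which the choice of genes with a large difference between the ends favours.

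**Figure D3:**
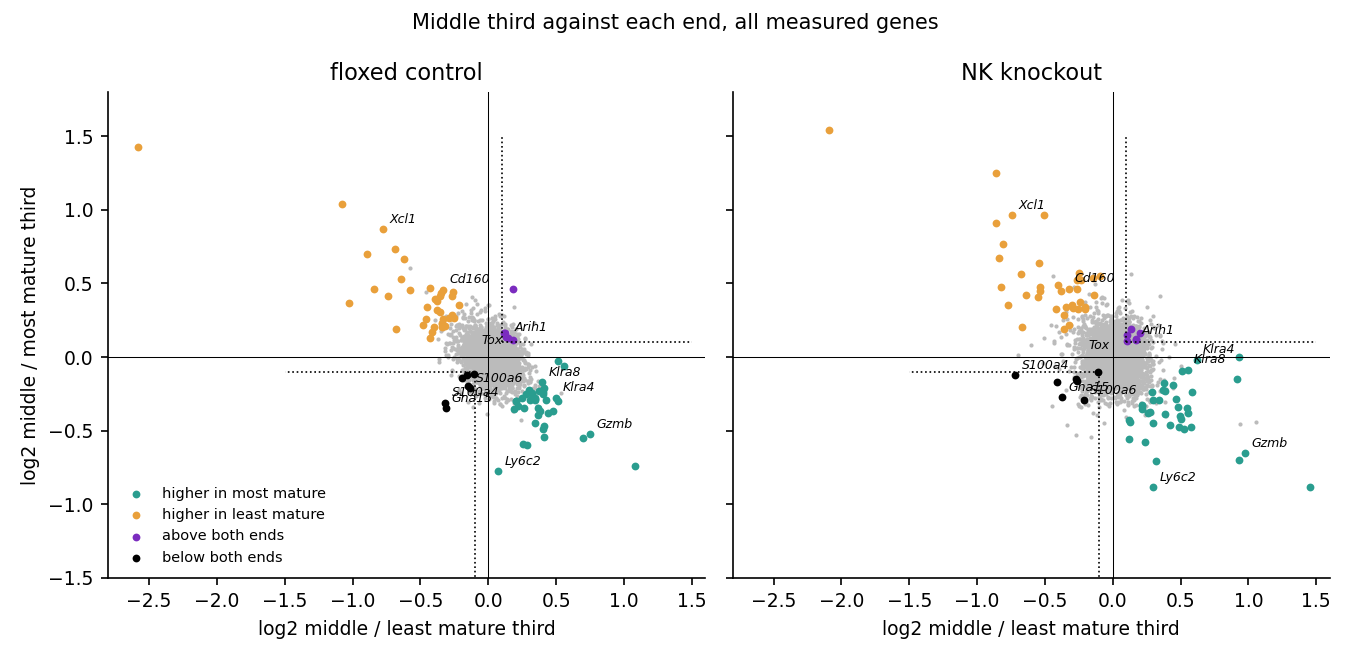
Log2 ratio of the middle over the least mature class (x axis) and over the most mature class (y axis) for 5092 measured genes, 1 point per gene, control left and knockout right; dotted corners mark a log2 ratio of 0.1 above or below both ends, colours mark genes called in both libraries. Graded genes fill the upper left (37 genes) and lower right (39 genes), while the corners for a peak and a dip hold 6 and 7 called genes.

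Granzyme and perforin genes were among those graded upwards. Of 19 measured cytotoxic effector genes, 4 were graded and higher in the most mature class, 0 were higher in the least mature class, and 0 peaked in the middle. Over all measured genes these shares were 0.766%, 0.727% and 0.118%. The gene lists here and below were chosen with earlier results of these data known. An excess of a list over the share of all genes may therefore be built in by that choice. Gzmb, the gene of granzyme B, stood at 167, 281 and 403 CPM in the control and at 149, 294 and 462 CPM in the knockout, with positions of 0.59 and 0.60. Gzma, the most abundant granzyme gene here, stood at 5788, 8045 and 10379 CPM in the control and at 6725, 9896 and 12899 CPM in the knockout. Prf1, of perforin, which opens the target membrane, stood at 472, 625 and 744 CPM in the control and at 489, 691 and 912 CPM in the knockout. Gzma and Prf1 were picked with their values known. The median log2 ratio of most over least mature classes over the 19 genes was 0.31 in the control and 0.29 in the knockout, beside 0.04 and 0.03 over all measured genes.

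Among other mature markers outside the score, 8 of 21 measured genes were graded upwards (0.766% of all measured genes) and 2 dipped (0.137% of all), the S100 genes above. Irf8, a transcription factor, stood at 215, 293 and 382 CPM in the control and at 183, 256 and 356 CPM in the knockout. Ccl5, a chemokine picked with its values known, stood at 13936, 16540 and 20048 CPM in the control and at 17925, 20810 and 26064 CPM in the knockout. Ly6c2, which encodes the surface protein Ly6C, was the one graded gene with a position of at most 1/3 in both libraries. It stood at 117, 123 and 210 CPM in the control and at 134, 164 and 303 CPM in the knockout, positions of 0.09 and 0.25. In the control, the middle of Ly6c2 was separated from the least mature class by a log2 ratio of 0.07 with an interval that held 0.

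Immature markers outside the score were graded downwards in 8 of 14 measured genes, with 0 upwards, beside 0.727% and 0.766% of all measured genes. Il7r, the receptor of interleukin 7 and also one of the ILC1 markers, stood at 70.3, 11.7 and 4.37 CPM in the control and at 142, 33.4 and 11.5 CPM in the knockout. Xcl1, a chemokine that draws in dendritic cells, stood at 450, 263 and 144 CPM in the control and at 243, 145 and 74.2 CPM in the knockout. Cd28, a costimulatory receptor, stood at 107, 59.8 and 43.3 CPM in the control and at 105, 58.8 and 37.0 CPM in the knockout. All of these lay between the ends in the middle. Slamf6 (40.4, 19.1 and 9.29 CPM in the control, 60.4, 33.2 and 14 CPM in the knockout) and the transcription factor gene Myb (50.7, 32.9 and 20.7 CPM, and 32.3, 22.7 and 11.7 CPM) were graded the same way, and both were picked with their values known. Of 31 measured NK transcription factor genes, Irf8 and Myb were the graded ones and 0 peaked or dipped in both libraries.

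Some graded genes had come close to the far end by the middle. With a position of at least 2/3 in both libraries there were 3 of the 76: Klra8 (0.70 and 0.87), Nrarp (0.95 and 0.70) and, downwards, Gramd3 (0.74 and 0.69). Nrarp, a Notch-regulated ankyrin repeat gene, stood at 42.9, 61.1 and 62.3 CPM in the control and at 62.2, 84.4 and 96.5 CPM in the knockout. Gramd3 stood at 37.1, 18.2 and 14.1 CPM in the control and at 72.5, 42.4 and 33.2 CPM in the knockout, and both genes were picked with their values known. Klra4 came close, with positions of 0.64 in the control and 0.97 in the knockout. Ccl4, a chemokine, had reached the mature level by the middle in the knockout (1) and not in the control (0.57). The difference of positions between the libraries was not tested.

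**Figure D4:**
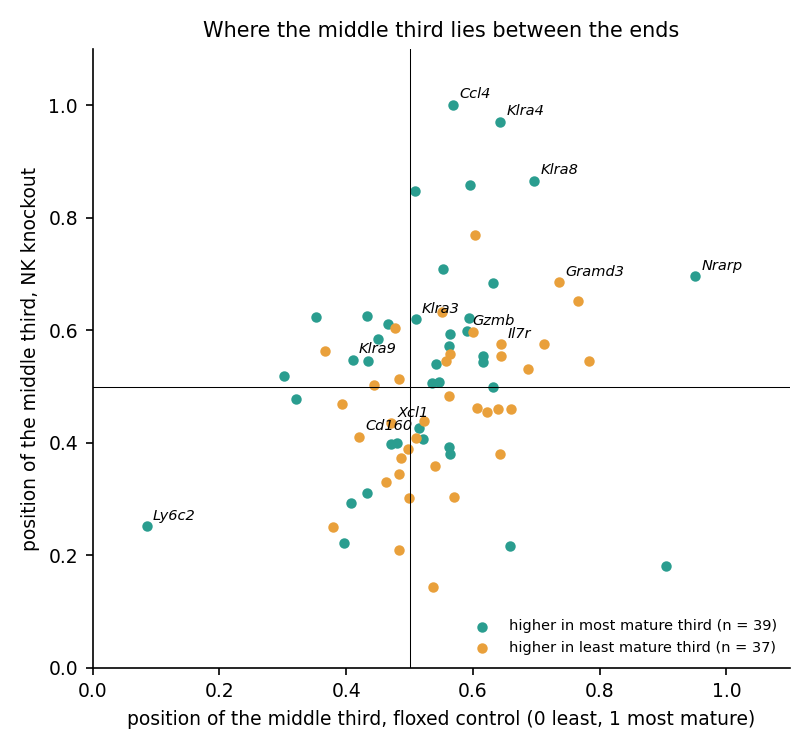
Position of the middle class between the least mature (0) and most mature (1) level on the log2 scale for the 76 graded genes, control on the x axis and knockout on the y axis, 1 point per gene, coloured by the end that is higher; thin lines mark 0.5. Klra8, Nrarp and Gramd3 lie towards the upper right, Ly6c2 at the lower left (0.09 and 0.25), and most genes lie around the medians of 0.544 and 0.511.

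The 6 measured Ly49 receptor genes lie in 1 cluster on chromosome 6. Of 11 family genes in the files 6 were measured, 4 of them graded upwards (Klra3, Klra4, Klra8 and Klra9) and 0 above or below both ends in both libraries. Over all measured genes 0.766% were graded upwards, 0.118% were above and 0.137% below both ends. Their RefSeq promoter windows, on the minus strand of GRCm38.p6, matched 11 of the 13 names searched for. Each runs from 250 bases before to 50 after the start used for the gene. For Klra3 and Klra8 that start is the outer end of the gene (130337626 and 130129898). The Klra9 window lies wholly inside the gene, which reaches to 130194374. The Klra4 start lies slightly inside the gene end at 130067301. The pair Klra4 and Klra8 had the same base at 86.3% of the 300 bases of the window and the pair Klra3 and Klra9 at 90.3%, bases with no partner counting as unlike, while Klra4 and Klra3 did so at 58%. The windows of the 4 graded genes are shown, as the Ly49 results below turn on these 2 pairs, with capitals marking bases that differ from, or have no aligned base in, the partner of the pair.
Klra4, chr6:130067222-130067521: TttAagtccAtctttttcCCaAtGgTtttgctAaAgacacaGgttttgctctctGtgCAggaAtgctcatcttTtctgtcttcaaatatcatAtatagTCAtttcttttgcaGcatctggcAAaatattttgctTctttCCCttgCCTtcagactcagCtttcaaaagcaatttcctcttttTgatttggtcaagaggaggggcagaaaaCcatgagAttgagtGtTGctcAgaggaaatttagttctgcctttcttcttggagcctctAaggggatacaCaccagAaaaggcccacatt
Klra8, chr6:130129849-130130148: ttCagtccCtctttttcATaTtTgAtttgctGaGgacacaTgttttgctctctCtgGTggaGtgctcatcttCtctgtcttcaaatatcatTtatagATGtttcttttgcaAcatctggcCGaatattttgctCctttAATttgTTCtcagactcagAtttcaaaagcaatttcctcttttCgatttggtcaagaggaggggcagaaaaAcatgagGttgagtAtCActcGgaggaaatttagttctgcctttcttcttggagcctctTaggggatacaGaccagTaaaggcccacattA
Klra3, chr6:130337577-130337876: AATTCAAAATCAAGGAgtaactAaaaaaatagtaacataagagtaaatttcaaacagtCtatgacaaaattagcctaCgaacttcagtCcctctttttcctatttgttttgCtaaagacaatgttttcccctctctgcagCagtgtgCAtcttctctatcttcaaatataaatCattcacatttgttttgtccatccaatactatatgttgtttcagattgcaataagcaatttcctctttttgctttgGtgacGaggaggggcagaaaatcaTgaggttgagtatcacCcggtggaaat
Klra9, chr6:130193063-130193362: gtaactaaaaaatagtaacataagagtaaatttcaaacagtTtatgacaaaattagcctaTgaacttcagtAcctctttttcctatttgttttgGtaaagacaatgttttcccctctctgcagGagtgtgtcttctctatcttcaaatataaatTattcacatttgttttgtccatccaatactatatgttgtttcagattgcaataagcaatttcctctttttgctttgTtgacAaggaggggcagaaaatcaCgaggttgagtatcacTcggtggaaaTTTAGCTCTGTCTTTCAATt
Identity of these letters is a description and no cause of the levels. The windows lie at or near the outer start of the gene, except that of Klra9 inside it, and none covers the 3′ end that was read. They do not show whether reads were counted to the wrong member of the family. That was not checked, so values of single Klra genes are uncertain.

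The pair Klra3 and Klra9 was picked with its values known and encodes Ly49C and Ly49I, which bind class I major histocompatibility proteins. By position it was passed through more evenly than the pair Klra4 and Klra8, less clearly so for Klra4 in the control. Klra3 stood at 203, 251 and 308 CPM in the control and at 236, 326 and 397 CPM in the knockout, positions of 0.51 and 0.62. Klra9 stood at 340, 392 and 481 CPM in the control and at 364, 542 and 753 CPM in the knockout, positions of 0.41 and 0.55. In both libraries the middle of these genes lay further below the mature end than for Klra8. For Klra4 that held in the knockout alone. In the control the Klra4 middle lay below the mature end by a log2 ratio of -0.28, about as far as Klra3 and Klra9. Klra7, the gene of the inhibitory receptor Ly49G, stood at 492, 529 and 542 CPM in the control and at 321, 413 and 382 CPM in the knockout. Klra7 was thus above both ends in the knockout by 0.11 (0.05 to 0.17 over the most mature class), but in the control the middle lay 0.04 below the mature end with an interval that reached 0. Klra1 stood at 119, 133 and 130 CPM in the control and at 80.9, 96.9 and 104 CPM in the knockout.

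Because each Ly49 gene is used by a part of the cells, a level can move through the number of cells or through the amount per cell. Cells were thinned to 2000 UMIs each for this, which left out 52 control and 44 knockout members. Klra8 was then detected in 53.0% of least mature, 64.0% of middle and 65.6% of most mature cells of the control (exact binomial interval in the middle 62.3 to 65.6). In the knockout these shares were 38.2%, 50.2% and 51.0% (48.4 to 52.1 in the middle). Before thinning, the middle shares were 75.1% and 58.4%. UMIs per cell with a Klra8 UMI were 3.12, 3.54 and 3.82 in the control and 2.60, 2.93 and 3.16 in the knockout. In both libraries the share of Klra8 cells was thus nearly level between the middle and the mature end, and the amount per such cell was lowest at the immature and highest at the mature end.

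Klra4 was detected in 46.4%, 61.1% and 67.2% of thinned control cells and in 34.9%, 48.2% and 50.6% of knockout cells. Klra9 was detected in 32.7%, 36.4% and 40.1% of control cells and in 33.0%, 44.2% and 54.5% of knockout cells, higher again after the middle. Cd160 ran downwards per cell as well, with 25.3%, 20.8% and 14.4% in the control and 18.2%, 14.1% and 10.1% in the knockout. Over the 6 measured Ly49 genes, a cell held a mean of 2.07, 2.46 and 2.60 different genes in the control and 1.64, 2.17 and 2.33 in the knockout. Cells with none of the 6 made up 10.7%, 4.20% and 2.34% in the control and 21.3%, 7.78% and 5.87% in the knockout. The larger part of that difference thus lay between the least mature and the middle class in both libraries.

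Free RNA sets a floor for such shares. In macrophage-like barcodes with C1q UMIs and no UMI of the NK receptors, 2 of 24 thinned knockout cells held a Klra8 UMI (8.33%, 1.03 to 27.0). In the control 2 such cells were deep enough to be thinned, and before thinning 10.7% of 28 held one. Their median depth was 1218.5 UMIs in the control and 1413 in the knockout, far below that of the NK cells. For Klra4 the share was 4.17% of the 24 knockout cells and, before thinning, 14.3% of the 28 control cells. The middle shares of Klra4 and Klra8 lay above these values. Barcodes with a UMI of the NK receptors were left out by choice, so the floor may be set too low.

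**Figure D5:**
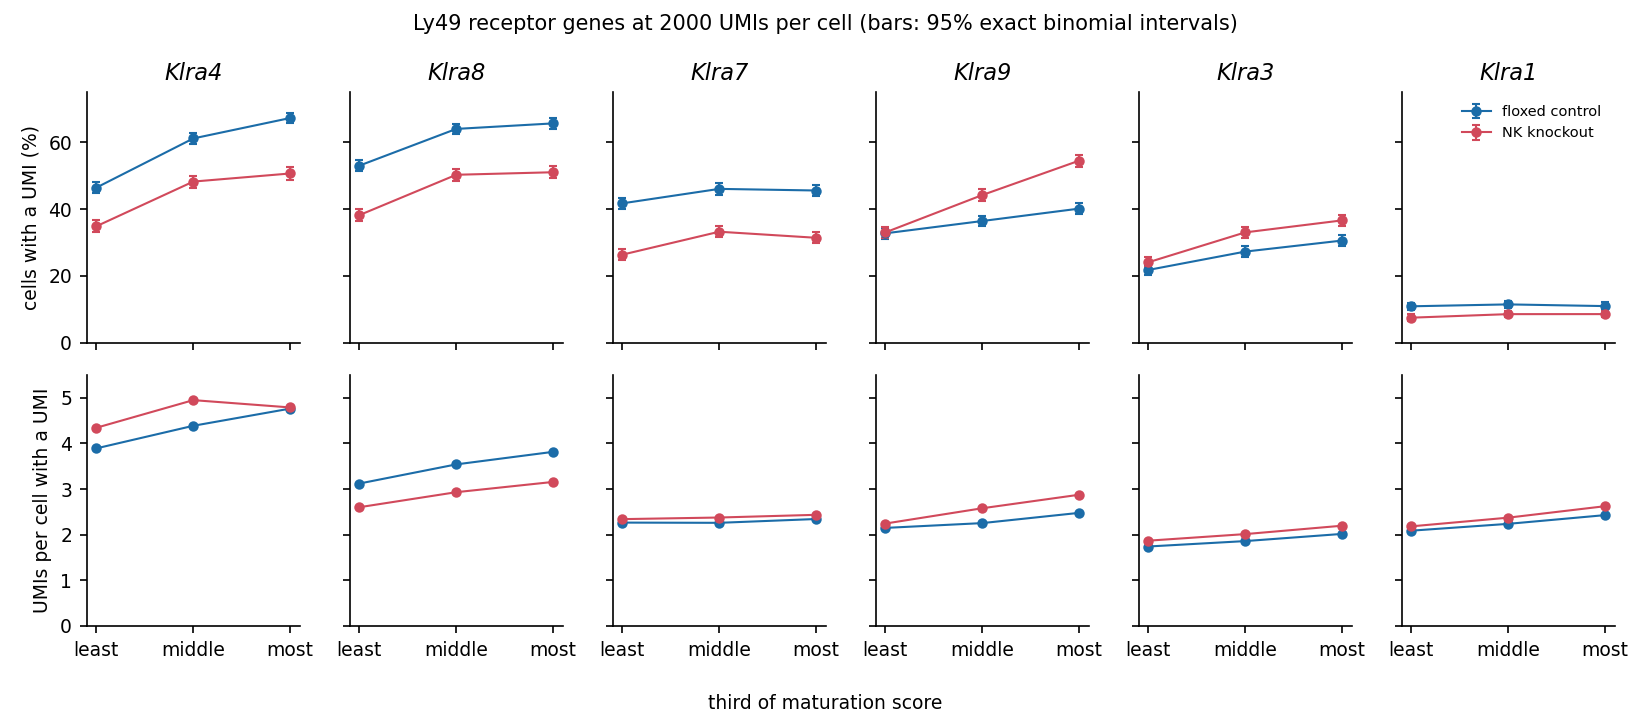
Upper row: share of cells with a UMI of each of 6 Ly49 genes (percent, axis from 0) by class of the maturation score, after thinning to 2000 UMIs per cell, control in blue and knockout in red, bars 95% exact binomial intervals; lower row: mean UMIs per cell with a UMI. For Klra8 the share is 64.0% in the middle and 65.6% in the most mature class of the control, and for Klra9 in the knockout it goes on from 44.2% to 54.5%.

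Within the middle class, the libraries differed widely. At least 0.32 on the log2 scale higher in the knockout were 627 of 5092 genes (12.3%), and lower by that size 1472 (28.9%). The level of Wls, a sorting receptor needed for Wnt secretion, was 49.5 CPM in the control middle and 583 CPM in the knockout middle. Cirbp, a cold-inducible RNA-binding protein, stood at 61.1 and 305 CPM, and Higd1a at 144 and 372 CPM. Klrc1, the gene of the inhibitory receptor NKG2A, stood at 272 and 580 CPM and Klrb1b, of another lectin-like receptor, at 75.4 and 165 CPM. The other genes named at the upper end by the rule were Ifitm10, Mir142hg, Bbc3, Fam204a and Ncf4, with log2 ratios from 0.87 to 1.08.

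At the lower end, Apobec3, a restriction factor of retroviruses, stood at 302 CPM in the control middle and 86.9 CPM in the knockout middle, and Macf1, a cytoskeletal linker, at 610 and 235 CPM. Chaperone genes were lower as a group. Of 11 measured heat shock genes 11 were lower by at least 0.32, beside 28.9% of all measured genes. The median log2 ratio of the list was -1.31, against -0.07 over all measured genes. Among chaperone genes Dnaja1 stood at 691 and 229 CPM, Hspa8 at 1721 and 706 CPM, Hsp90aa1 at 581 and 234 CPM, Hspd1 at 218 and 84.7 CPM and Chordc1 at 154 and 56.6 CPM. The splicing factor gene Sfpq (-1.56), the immediate early gene Fosb (-1.34) and Lta4h (-1.28) were also among the lowest 10. The median of the heat shock list was -1.32 in the least and -1.27 in the most mature class, so it was nearly the same along the score.

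For some genes the ratio between the libraries differed by class. The log2 ratio of knockout over control was higher in the middle than in both ends by at least 0.2 for 36 genes (0.707%) and lower for 60 (1.18%), 96 in all. The same count was 167 for the least and 183 for the most mature class. Ccl4 had ratios of -1.45 in the least mature, -0.82 in the middle and -1.05 in the most mature class, from 292, 359 and 420 CPM in the control and 107, 203 and 203 CPM in the knockout. Cxcr3, a chemokine receptor of less mature NK cells, had ratios of 0.50, 0.69 and 0.47, from 76.5, 45.9 and 34.4 CPM in the control and 108, 74.2 and 47.7 CPM in the knockout. The smaller of its differences stayed under 0.2, so Cxcr3 is not among the 36. Its level in the knockout middle was thus close to the least mature level of the control. The others named by the rule were Emc2, Emc7 and Vars on the upper side and Elk3, Mlf2, Nipa2, Pak1ip1 and Rnf138 on the lower side, all within 0.61 of 0 in the middle class. Only 4 genes of at least 50 CPM reached the size, so several of those named here fall short of it.

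Among lists with the largest medians between the libraries, interferon response genes were lower in 7 of 13 and higher in 1 of 13 in the middle class, beside 28.9% and 12.3% of all measured genes, with medians of -0.51, -0.40 and -0.31 along the score. Of 6 measured Ly49 genes in the middle, 3 were lower in the knockout (Klra1, Klra7 and Klra8, log2 ratios of -0.46, -0.36 and -0.54) and 2 higher (Klra3, 0.38, and Klra9, 0.47), with Klra4 between (-0.13), against the same shares of all genes. The pair of Klra3 and Klra9 thus lay on the other side of the control from Klra8 in the middle. Of the 5 mature score genes 4 were lower in the knockout middle and Zeb2 had ratios of -1.49, -1.14 and -0.61 along the score, but those genes chose the cells. Of 2 measured prostanoid genes, Ptger4, the gene of the EP4 receptor, stood at 47.0 and 32.5 CPM in the middle and Ptges3, a prostaglandin E synthase, at 150 and 107 CPM.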

How the data were processed

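Per the labels, RNA of sorted splenic NK cells was captured on droplets (kit named Single Cell 3' v2). The submitters' processing notes name STAR, Cell Ranger 3.0.0, Seurat and the build GRCm39. The deposited matrices hold raw UMI counts per gene and barcode, as the authors' pipeline wrote them. Reads were not used.

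The members and gene lists were chosen with earlier results of these data known. Counts were summed per library and class and divided by their total. Ratios carry exact conditional binomial intervals, shares exact binomial (Clopper-Pearson) intervals, at 95%. The rule for peaks and dips and the ratio intervals were tried on simulated counts per class, and the other steps were not. No doublet caller was run here, and leaving out the 5% of cells with most UMIs was tried. Named genes were the score genes, the 4 proposed markers, Ptger3, Ncr1, the 20 largest peaks, 10 deepest dips, 10 highest and 10 lowest knockout ratios, the 5 on each side furthest from both ends (all at 50 CPM or more) and up to 4 genes per list. Software was Python 3.11.15 with pandas 2.3.3, scipy 1.17.1 and numpy 2.4.6, and matplotlib 3.10.9 for plots. Gene positions and promoters are RefSeq, GRCm38.p6, a different build from that of the notes, and serve as names and sequence alone.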

Additional observations from a re-analysis of the deposited data

Results flagged for a closer look

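Tuba1b, a tubulin gene among the cell division list, ran in opposite directions along the score in the libraries. Its log2 ratio of most over least mature classes was -0.24 in the control (-0.34 to -0.15) and 0.29 in the knockout (0.17 to 0.41). The middle class stood at 95.4 CPM in the control, between ends of 96.5 and 81.4 CPM, and at 93.3 CPM in the knockout, between ends of 77.8 and 95 CPM. The difference between the libraries was not tested.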

How the results depend on the processing

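No paired analysis was possible because each genotype is 1 library. The position of the middle, averaged over the libraries, moved by at most the standard deviation of the 2 library medians under every alternative giving it. That spread is a difference between libraries and not an error of the estimate. With cells thinned to 2000 UMIs the medians were 0.579 in the control and 0.495 in the knockout, beside 0.544 and 0.511 as reported. The log2 ratio of the middle over the higher end, in the library where it was smaller, ran from -0.30 to -0.18 for Klra4, -0.24 to -0.16 for Klra8, -0.37 to -0.12 for Tox and -0.46 to -0.31 for Cd160. For the peak genes Arih1 and Sf3a3 that ratio ran from -0.001 to 0.14 and from -0.11 to 0.12. The ratio over the lower end, in the library with the smaller dip, ran from -0.20 to -0.07 for S100a6 and -0.41 to -0.04 for Gna15. For S100a4 it ran from -0.32 to 0.02. Changes of the CPM minimum cannot move these values. The counts of peaks and dips, 6 and 7, depended on depth, size and cells. They were 33 and 34 with cells thinned to 2000 UMIs, where Sf3a3 turned to -0.11, 22 and 15 for the middle against the outer of 5 equal classes, and 52 and 81 without cells holding markers of other cell types, division or interferon, which left 2188 control and 3294 knockout cells. They were 2 and 1 at 50 CPM or more, 125 and 109 at 1 CPM or more, 64 and 31 at a size of 0.05, and 0 and 1 at a size of 0.2. The control alone gave 102 and 48, and the knockout alone 179 and 168. Peaks were 3 with 1 pair of cuts over both libraries, and dips 11 with a score without Itgam and Cd27. Genes apart between the libraries in the middle, 2099 as reported, were 889 at 50 CPM, 5010 at 1 CPM and 802 at a size of 0.58. Their split into higher and lower in the knockout, 627 and 1472 as reported, depended on the scaling. It was 796 and 1310 when classes were scaled by the median ratio of their genes in place of their totals. Genes whose ratio set the middle apart from both ends, 96 as reported, were 369 after thinning, 221 by 5 classes, 600 without cells with other markers, 166 without cells with a UMI of an ILC1 marker (added after seeing the data), 4 at 50 CPM, 1239 at 1 CPM and 9 at a size of 0.32. The causes were not tested. Genes of few UMIs limit what a class can show, and no alternative replaces a second library.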
